A study of Mus musculus with 34 samples.

Results

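RLTR and RMER families are repeat families of rodent genomes, named by the prefix RLTR or RMER and a family number. Many, though not all, are long terminal repeat (LTR) retroviral families. They were followed here in a study of H3K9me2 in the fetal mouse gonad. The members were all repeat families in the tables of soma and of primordial germ cells whose names begin with either prefix. They numbered 240 of 1493 families in all, with 239 in the soma table of 1482 families and 240 in the PGC table of 1456. Of these 186 carry an RLTR and 54 an RMER name, 16 are internal parts, whose names end in -int, and the other 224 are called LTR here. The names do not give a repeat class, and RMER names are not confined to LTR elements.

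The gonads came from E13.5 female C57BL/6 embryos of genotype Gulo-/-, which cannot make vitamin C. All groups share this genotype, so the embryos depended on what the mother ate: vitamin C was supplied at a physiological level or withdrawn from the start of gestation. Primordial germ cells (PGCs), from which the gametes develop, were sorted as Oct4GFP+ cells, and the Oct4GFP- remainder of the gonad, a mixture of cell types, was taken as soma. H3K9me2 was profiled by CUT&RUN, in which a nuclease tethered to an antibody cuts out marked chromatin, in 3 withdrawn and 4 supplied libraries of soma and in 5 and 5 of PGCs. A further 17 IgG libraries are not analysed here.

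An endogenous retrovirus carries its protein-coding sequence in an internal part between a pair of LTRs, and recombination between these often leaves a solo LTR behind. H3K9me2, laid down mainly by the methyltransferases EHMT1 and EHMT2, marks repressed chromatin, and with DNA methylation and H3K9me3 it belongs to the marks that keep retroviral families silent. Vitamin C is a cofactor of the dioxygenases that remove H3K9 methylation and oxidise 5-methylcytosine, and PGCs lose most DNA methylation on their way to this stage. Some families have known roles in the mouse: RLTR4 is the LTR of murine leukaemia virus, RLTRETN_Mm that of the mobile ETn elements, and RLTR6_Mm that of VL30, while LTRs of the RLTR9 and RLTR13 groups serve as enhancers in embryonic or trophoblast stem cells.

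Values per library are not part of the tables used here, so each family is given by the statistics of the authors' deposited tables: a log2 fold change, its standard error (SE) and an average signal over both vitamin C states in log2 CPM, reads scaled to the size of the library. In soma the authors' fit pooled its error over families, so a soma SE follows from the level of a family. It and its p-value do not measure how far that family varied between libraries. The headers name no antibody, and the tables were taken as H3K9me2. Fold changes of soma were read as withdrawn over supplied, and the sign in PGCs, which could not be read, was assumed to be the same. The library size that the averages of repeat families imply, as a geometric mean, came to a minimum of 2130351 reads for soma and 792226 for PGCs. Which reads that size counts is not stated. The median member then had 207 reads per library or more in soma and 40.2 or more in PGCs. At that minimum depth 3 members in soma and 33 in PGCs would have fewer than 10, and their true counts may be higher. Reads from young subfamilies can map to several of them, and the handling of such reads is not stated, so neighbouring subfamilies may share reads. In a mixed population a change in the mark and a change in the mix of cells cannot be told apart, and the labelled cell types cannot be checked from these tables, which hold no expression.

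In soma nearly all RLTR and RMER families rose when vitamin C was withdrawn, and by much the same amount. Of the 239 members 238 rose past an adjusted p of 0.05 and 0 fell in the authors' deposited table, by limma, against 77% of all 1482 families that rose and 0.405% that fell. The share that rose was 72.6% among families other than RLTR and RMER and 83.3% among families other than simple tandem repeats. At an unadjusted p under 0.05 it was 78.3% of all families in either direction, and 238 members. The median member had a log2 fold change of 1.43, or 2.70-fold, and the median of all families was 1.18. The members lay close together, with 1.26 and 1.60 as the outer deciles. The width between the quartiles, 0.13, is below the median SE of a single member, 0.29, and 222 of 239 members lay within 1 SE of the median member. The 5 members beyond 2 SE of it were all low: RLTR17B_Mm, RLTR20A4, RLTR20C1_MM, RLTR31D_MM and RLTR51A_Mm. Families of the same libraries share part of their error, and that share could not be measured from the tables.

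The plot of log2 fold changes by family number shows this narrow band in soma across the larger numbers. The members fall into 61 numbers or names, 16 with a single member and 15 with 5 or more. Over those 15 the median ranged only from 1.35 (RMER6) to 1.58 (RLTR10) in the authors' deposited table. RLTR13 is the most numerous, with 23 members, and all 23 rose, from 1.32 (RLTR13C1) to 1.65 (RLTR13D) in the authors' deposited table. RLTR10 had 10 members from 1.37 (RLTR10F) to 1.72 (RLTR10A), RLTR9 had 13 from 1.32 (RLTR9F) to 1.76 (RLTR9D2), and RLTR12 had 10 from 1.24 (RLTR12C) to 1.65 (RLTR12D) in the authors' deposited table. All members of these 4 numbers lay above the median family. RLTR11, with 5 members from 1.42 to 1.56, was the tightest of the 15 in the authors' deposited table.

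**Figure D1:**
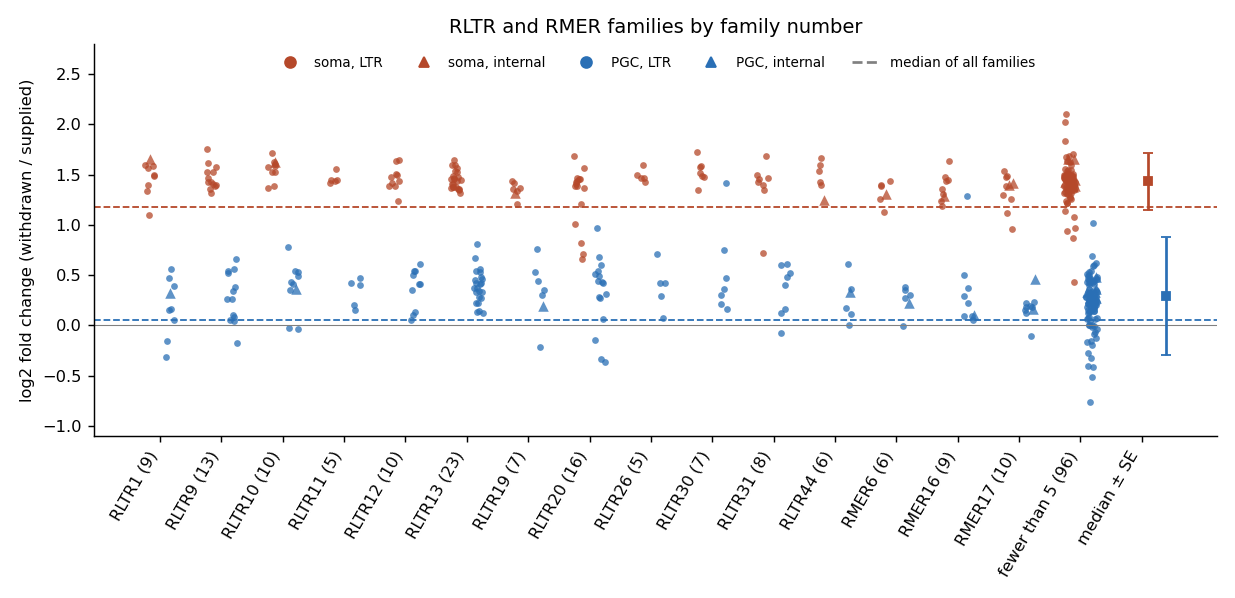
Log2 fold change (withdrawn over supplied) of each RLTR or RMER family, grouped by family number with the number of members in brackets; soma is red, PGCs blue, circles are LTRs and triangles internal parts, dashed lines are the medians of all families (1.18 and 0.050), and the squares at the right give the median member with the median SE of a member. Soma points lie around 1.43 in the 15 numbers with 5 or more members, with low points in RLTR20, RLTR31 and RMER17; the other numbers share 1 column, whose lowest soma point is RLTR17B_Mm at 0.43, while PGC points spread around 0.29 with larger errors.

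RLTR20 had the widest range of any number, 1.03, from 0.66 (RLTR20A4) to 1.68 (RLTR20A) over 16 members in the authors' deposited table. RLTR17 (4 members, range 0.98) and RLTR31 (8 members, range 0.97) came next, in each case through a low member, RLTR17B_Mm at 0.43 and RLTR31D_MM at 0.72 in the authors' deposited table. The other 3 RLTR17 members stood at 1.31 to 1.41 and the other 7 RLTR31 members at 1.34 to 1.69 in the authors' deposited table. Numbers with few members strayed further, in both directions. Medians were 1.11 in RLTR51, 1.20 in RLTR42, 1.29 in RLTR47 and 1.76 in RLTR50, 2 members each, picked after their values were seen. In RMER12, also picked so, 2 of the 3 members lay below the median family: RMER12C at 0.94, RMER12 at 1.08 and RMER12B at 1.37 in the authors' deposited table. Names with a rat suffix did not stand apart, with RLTR14_RN at 1.42 ± 0.28 (SE) and RLTR30D_RN at 1.58 ± 0.36 in the authors' deposited table.

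The lowest values were found mostly in abundant members. RLTR17B_Mm, with the highest average of any member (12.26 log2 CPM in soma) and the smallest SE, stood at 0.43 ± 0.22 and, alone among members, missed the threshold in the authors' deposited table (adjusted p = 0.0654). Just inside it in the authors' deposited table were RLTR1 at 1.10 ± 0.47 (adjusted p = 0.026), RLTR20A1 at 0.82 ± 0.34 (adjusted p = 0.0209) and RLTR20A4 at 0.66 ± 0.24 (adjusted p = 0.00952), by limma. Also among the 5 lowest, RLTR20C1_MM rose by 0.71 ± 0.26 and RLTR31D_MM by 0.72 ± 0.24 in the authors' deposited table. RLTR1 is sparse, with an average of 1.99 log2 CPM, and RLTR20A4 is abundant, at 10.07, in the authors' deposited table. Altogether 15 members lay below the median family in soma, and 12 of these had a higher average than the median member. With the median family subtracted, no member passed upward (0% of all families) and 1 passed downward (8.77% of all families). At an unadjusted p under 0.05 there were 2 upward and 2 downward members, against 0.472% and 17.1% of all families. The lower one was RLTR17B_Mm, 0.76 below the median family (-0.76, adjusted p = 0.00997). With only the residual degrees of freedom that 7 libraries leave, or centred on the median gene, this call ended (adjusted p = 0.314 and 0.0732). The relative test kept the SE of the fold change before subtraction. Error shared by families may be part of that SE, so the test may pass too few families.

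Several of the low members had relatively more signal in PGCs, though not RLTR20A1, whose PGC minus soma average of -1.85 was the lowest of any member. Most members were less abundant in PGCs than in soma on the CPM scale, by a median of 0.86 (a PGC minus soma average of -0.86), whereas in 7 of 239 the PGC average was the higher. Those 7 were RLTR17B_Mm, RLTR20A4, RLTR20C1_MM, RLTR31D_MM, RLTR51A_Mm, RMER17C2 and RMER17D, the last 3 named after their values were seen. Their soma log2 fold changes ran from 0.43 to 1.12 with a median of 0.72, against 1.43 for the other 232 members, in the authors' deposited table. The same held over all 1445 families in both tables: 443 had the higher average in PGCs, and their median soma log2 fold change was 0.51, against 1.35 for the rest. The soma average contains the withdrawn libraries, so a family that rises more in soma has a higher soma average by construction, and no test was made of this relation. Across all 239 members the rank relation was close to none (Spearman's rho = -0.044, Pearson's r = -0.30). Over the 179 members above the lower quartile of soma average it was stronger, with a rho of -0.23 and an r of -0.62. With both averages taken back to the supplied state by the fold changes, which uses the assumed PGC sign, rho was 0.018 and r -0.17. For the 179 members these were -0.16 and -0.52. On that derived scale RLTR10A, among the members that rose most, also had more signal in PGCs, by 0.19, beside 0.50 to 0.81 for the 7. Averages depend on the scaling of each table, and the tables were scaled separately.

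**Figure D2:**
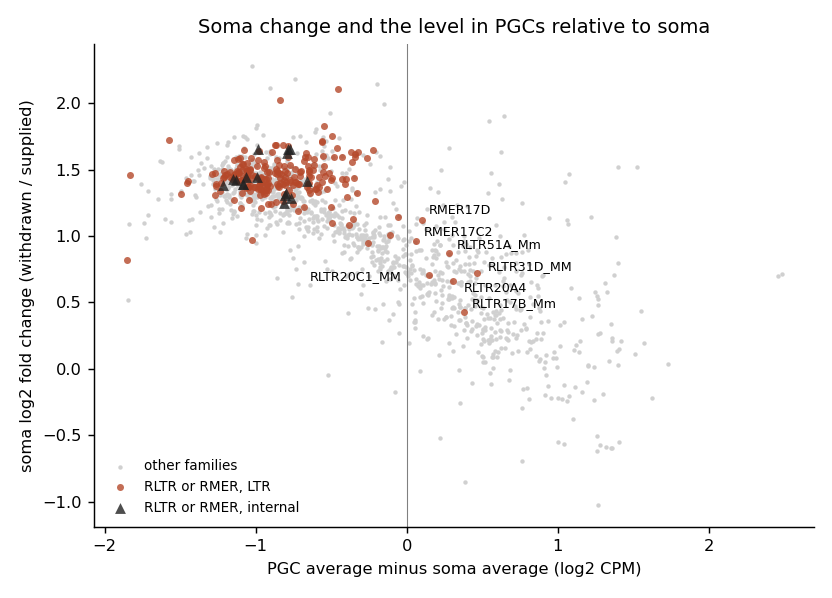
Soma log2 fold change (withdrawn over supplied) against the PGC minus soma average (log2 CPM) for each repeat family; RLTR and RMER LTRs are red circles, their internal parts black triangles and other families grey. The 7 members right of 0 are named and lie at 0.43 to 1.12, below the band of the other members.

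At the other end, the authors' deposited table gave RLTR41B the highest value of any member, 2.10 ± 0.38 (adjusted p = 3.01e-07, by limma), followed by RLTR50A at 2.02 ± 0.39 (adjusted p = 1.14e-06). RLTR46A2 stood at 1.83, RLTR9D2 at 1.76 and RLTR30C_MM at 1.73 in the authors' deposited table. All 5 are sparser than the median member, with averages of 2.44 to 4.78 log2 CPM, and their errors of 0.31 to 0.43 are larger than that of the median member. Relative to the median family RLTR41B was 0.92 and RLTR50A 0.84 higher, and neither passed (adjusted p = 0.118 and 0.199). RLTR41B's namesakes RLTR41, RLTR41A2 and RLTR41C stood at 1.46, 1.47 and 1.55 in the authors' deposited table.

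The members with the 10 smallest p-values were more abundant than the median member, apart from RLTR10A, which lay near it at 6.54 log2 CPM with an SE of 0.29. In the authors' deposited table RLTR6-int rose by 1.65 ± 0.25 (adjusted p = 4.61e-09), RLTR10-int by 1.62 ± 0.25 (adjusted p = 7.18e-09) and RMER15 by 1.46 ± 0.23 (adjusted p = 1.11e-08), by limma. RMER19B at 1.48, RMER17B at 1.54, RLTR1B-int at 1.66, RLTR4_MM-int at 1.66, RLTR10 at 1.59, RLTR10A at 1.72 and RLTRETN_Mm at 1.68 completed the 10 smallest in the authors' deposited table. With members split at the quartiles of soma average into 4 sets, from the sparsest to the most abundant, the median log2 fold change was 1.46, 1.45, 1.43 and 1.39 and the median SE 0.32, 0.29, 0.28 and 0.25. The plot of fold change against level shows most members above the median family over the whole range of levels.

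**Figure D3:**
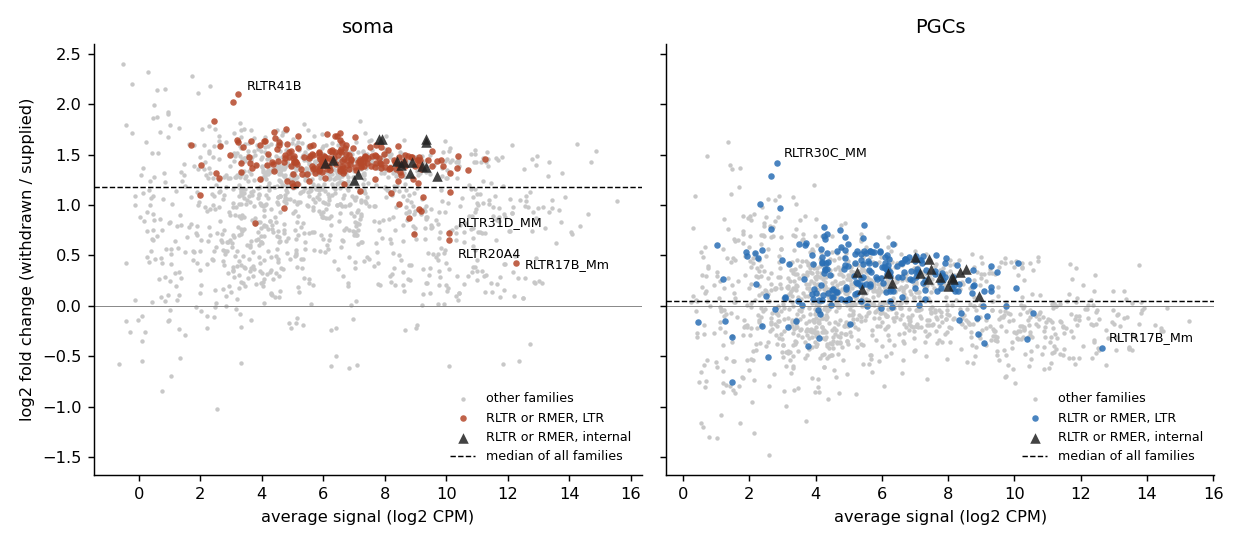
Log2 fold change (withdrawn over supplied) against average signal (log2 CPM) in soma (left) and PGCs (right); coloured circles are RLTR and RMER LTRs, black triangles their internal parts, grey points other families and the dashed line the median of all families. In soma the members gather near 1.43, with RLTR17B_Mm lowest at 0.43, and in PGCs near 0.29.

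Internal parts and LTRs moved together in soma. All 16 internal parts rose, from 1.25 (RLTR44-int) to 1.66 (RLTR4_MM-int), and their median was 1.42 beside 1.43 for the 223 LTRs measured, from the authors' deposited table. Of the 15 internal parts with an LTR of the same number, 8 lay above and 7 below the median of those LTRs. For 13 an LTR of the same name exists, and in 12 of these pairs the values differed by less than the larger SE of the pair. RMER16-int was paired with RMER16 and not with RMER16_Mm. The largest difference, 0.46, was that of RLTR42-int at 1.43 ± 0.26 and RLTR42 at 0.97 ± 0.31 in the authors' deposited table. In the murine leukaemia virus pair RLTR4_MM-int stood at 1.66 ± 0.27 and RLTR4_Mm at 1.48 ± 0.30 in the authors' deposited table. RLTR6-int lay 0.18 above RLTR6_Mm, which stood at 1.48 ± 0.30, and RLTR1B-int 0.06 above RLTR1B, at 1.60 ± 0.28, in the authors' deposited table. The order was the other way in RMER16-int, at 1.29 ± 0.25 beside 1.45 ± 0.29 for RMER16, and in RLTR19-int, at 1.32 ± 0.26 beside 1.43 ± 0.28 for RLTR19, in the authors' deposited table. No test of these differences was possible, because both parts were measured in the same libraries and their shared error is not in the tables.

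**Figure D4:**
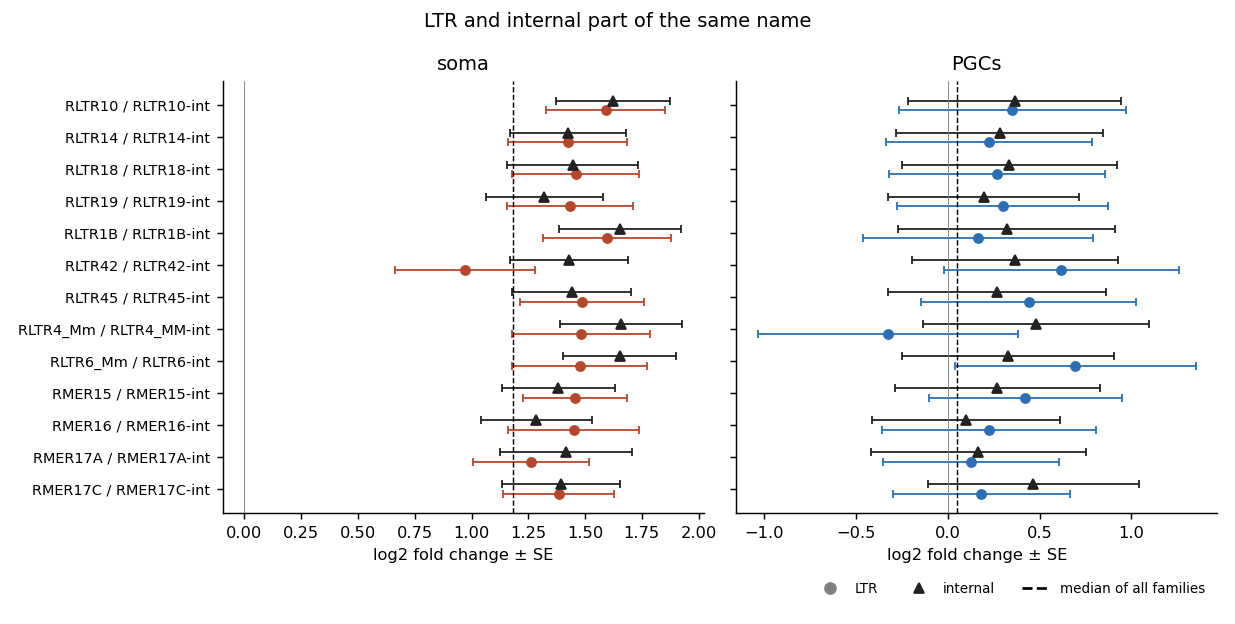
Log2 fold change (withdrawn over supplied) ± SE of the LTR (coloured circle) and the internal part (black triangle) of the 13 pairs with the same name, in soma (left) and PGCs (right); the dashed line is the median of all families. The bars of each pair overlap; the widest gap in soma is that of RLTR42 and RLTR42-int, 0.46, and in PGCs that of RLTR4_Mm and RLTR4_MM-int, 0.81.

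RLTR10-int at 1.62 ± 0.25 and RLTR10 at 1.59 ± 0.26 were close, as were RLTR14-int at 1.42 ± 0.26 and RLTR14 at 1.42 ± 0.26, in the authors' deposited table. RLTR18-int at 1.45, RLTR45-int at 1.44 and RMER15-int at 1.38 lay just below their LTRs at 1.46, 1.49 and 1.46 in the authors' deposited table. RMER17A-int at 1.42 and RMER17C-int at 1.39 stood beside RMER17A at 1.26 and RMER17C at 1.38 in the authors' deposited table. RMER3D-int, at 1.39, has no measured LTR of its number, and RMER6-int, at 1.31, and RLTR44-int have none of the same name, in the authors' deposited table. RLTR44-int lay below each of the 5 RLTR44 LTRs, at 1.40 to 1.66 in the authors' deposited table.

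As a group the internal parts had the higher averages. Their median average was 8.57 log2 CPM in soma, against 6.54 for LTRs, and 7.45 against 5.59 in PGCs, in the authors' deposited tables. Within the 13 same-name pairs the internal part had the higher soma average in 9, and the LTR in the others, such as RMER15 at 11.27 beside RMER15-int at 9.35 and RMER17A at 8.92 beside RMER17A-int at 6.06, in the authors' deposited table. CPM is neither per base nor per copy, so long or numerous families score higher. RMER families had a median average of 8.58 and RLTR families of 6.21 in soma in the authors' deposited table. The order of levels was nearly the same in both cell populations (Spearman's rho = 0.99, Pearson's r = 0.99 across 239 families, which share genome copy number and length). RLTR17B_Mm led both tables, followed in soma by RMER15 (11.27), RMER1B (10.69), RMER19B (10.38) and RMER5 (10.35), and in PGCs by RLTR31D_MM (10.56), RLTR20A4 (10.38), RMER15 (10.12) and RMER1B (10.05), in the authors' deposited tables. The sparsest were RLTR46 (1.68), RLTR1 (1.99), RLTR9A4 (2.04), RLTR46A2 (2.44) and RLTR46A (2.52) in soma, and RLTR43A (0.46), RLTR46A (1.03), RLTR9A4 (1.20), RLTR46 (1.26) and RLTR47_MM (1.48) in PGCs, in the authors' deposited tables. RLTR43A is the 1 member found only in the PGC table, with a log2 fold change of -0.17 ± 0.75 there in the authors' deposited table.

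In PGCs no member passed the test. Of 240 members, 0 had an adjusted p under 0.05 in the authors' deposited table, by limma, and 0 an unadjusted p under 0.05, against 0% and 0.137% of all 1456 families. The ratio of log2 fold change to SE spread little, with a standard deviation of 0.65 over all families and 0.43 over members. The cause of that narrow spread was not tested. The median member stood at 0.29, a 1.23-fold difference, and the median of all families at 0.050. Values were positive in 213 members and negative in 27, with the sign read as in soma. The median SE was 0.59, and with that assumed sign the 95% interval of 227 of 240 members reached a log2 fold change of 1. A PGC rise of that size was thus within the error for most members, but only under that sign. The median lower end of the intervals was -0.87, so with the sign turned the median interval would end short of 1. After subtracting the median family 207 members were above 0 and 33 below, and 0 passed, also at an unadjusted p under 0.05, against 0% at the adjusted threshold and 0.0687% upward and 0.137% downward of all families at the unadjusted one.

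RLTR30C_MM had the largest PGC value, 1.42 ± 0.72 (p = 0.0595 unadjusted, adjusted p = 1.00), followed by RMER16B at 1.28 ± 0.70 (p = 0.0758 unadjusted), RLTR3_Mm at 1.01 ± 0.68, RLTR20C at 0.97 ± 0.83 and RLTR13B4 at 0.81 ± 0.66 in the authors' deposited table, by limma. All but RLTR13B4 are sparse there, with at least 3.49 to 5.53 reads per library at the minimum depth. RLTR10E at 0.78, RLTR30 at 0.75, RLTR26D_MM at 0.71, RLTR20A2B_MM at 0.68 and RLTR13C3 at 0.67 completed the 10 smallest p-values in the authors' deposited table. The lowest values were RLTR47_MM at -0.76 ± 0.81, RLTR6C_Mm at -0.51 ± 0.78, RLTR17B_Mm at -0.42 ± 0.38, RLTR48B at -0.40 ± 0.56 and RLTR20C1_MM at -0.36 ± 0.43 in the authors' deposited table. RLTR17B_Mm had the smallest error of any member here too, and its 95% interval reached up to 0.36. Of the 15 members below the median family in soma, 10 had a negative PGC value, as did 16 of the other 224 in both tables.

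By family number, all 23 RLTR13, all 10 RLTR12, all 9 RMER16, all 7 RLTR30, all 6 RLTR44, all 5 RLTR11 and all 5 RLTR26 members had positive PGC values in the authors' deposited table, none of them passing. RLTR31 had the highest median of the numbers with 5 or more members, 0.45, and RLTR1 the lowest, 0.16, in the authors' deposited table. The 16 internal parts were all positive, from 0.10 (RMER16-int) to 0.48 (RLTR4_MM-int), with 0.30 as their median beside 0.29 for LTRs, from the authors' deposited table. Their SEs were 0.51 to 0.61. The pair RLTR4_MM-int at 0.48 ± 0.61 and RLTR4_Mm at -0.32 ± 0.71 differed most, by 0.81, in the authors' deposited table.

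The question whether soma and PGCs responded differently was put to the difference itself. All 239 members in both tables had a higher log2 fold change in soma, by a median of 1.13, with 1.06 over all 1445 shared families. None passed an adjusted p of 0.05, with 50 of 239 at an unadjusted p under 0.05, against 0% and 23.6% of all families. The largest differences were RLTR41B at 2.14 (95% interval 0.47 to 3.81), RLTR6C_Mm at 2.13, RLTR48B at 2.04 (0.74 to 3.33), RLTR47_MM at 2.03 and RLTR4_Mm at 1.81, each with an adjusted p of 0.192. RLTR30C_MM at 0.31, RLTR20A1 at 0.33, RMER16B at 0.35, RLTR42 at 0.35 and RLTR3_Mm at 0.48 were the smallest. If the PGC sign is turned, 151 members passed, and if soma and PGC estimates had a correlation of 0.5, 49 did, so this result rests on assumptions that the tables do not settle. The shares of all families under those settings are not given here, so these counts do not set members apart from other families. After each table's median was subtracted, the median difference of members was 0.0015, with 121 members positive and 118 negative, and 0 passed, also at an unadjusted p under 0.05, against 0.0692% upward and 0.761% downward of all families at that p. The plot of soma against PGC values shows a weak relation among members (Pearson's r = 0.33, Spearman's rho = 0.24 across 239 families, which share level and reads). Over the 179 members above the lower quartile of soma average r was 0.55 and rho 0.34, and the sign of each rests on the assumed PGC direction.

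**Figure D5:**
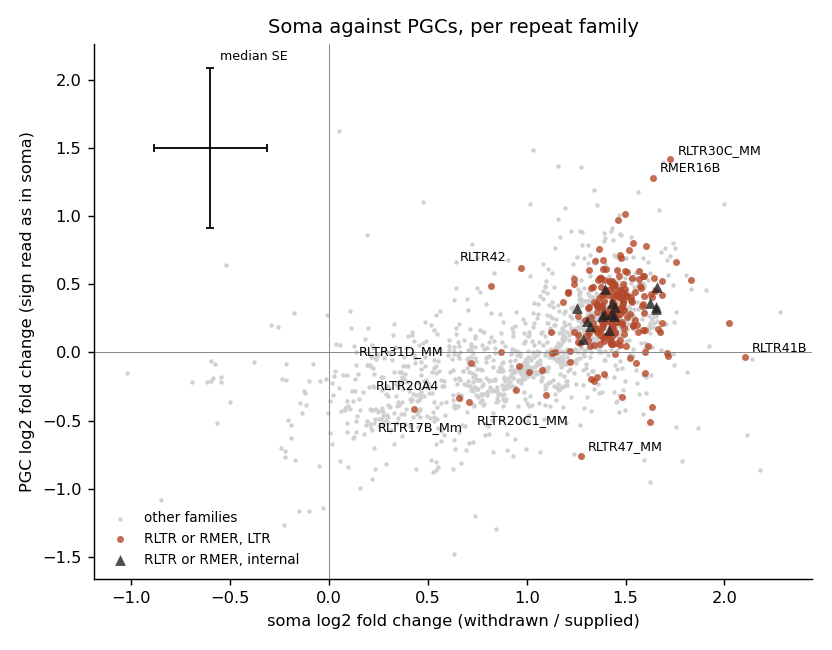
PGC log2 fold change, with its sign read as in soma, against soma log2 fold change (withdrawn over supplied) for each repeat family; RLTR and RMER LTRs are red circles, their internal parts black triangles and other families grey, and the cross gives the median SE of a member. Members gather near 1.43 in soma and 0.29 in PGCs, with RLTR17B_Mm, RLTR20A4 and RLTR20C1_MM low in both.

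Set beside other repeats, RLTR and RMER families had a soma median near those of named retroviral groups. The soma median was 1.53 for 25 IAP families, 1.38 for 9 ETn and MMERVK families and 1.41 for 105 MaLR families, the non-autonomous ORR1, MT, MST and MLT1 LTRs, in the authors' deposited table. For 27 rodent LINE-1 families of the L1Md and Lx groups it was 1.04, for 31 SINE families 0.89 and for 282 simple tandem repeats 0.69 in the authors' deposited table. In PGCs these medians were 0.32, 0.31, 0.24, -0.12, 0.014 and -0.14 in the same order in the authors' deposited table. The near-complete rise in soma was not particular to RLTR and RMER families. At an adjusted p under 0.05 by limma, 238 of 239 members rose, as did 102 of 105 MaLR families. All 25 IAP, all 9 ETn and MMERVK and all 27 L1Md and Lx families rose too. The counts were lower for SINEs, 23 of 31, and simple tandem repeats, 141 of 282. No test between these groups was made.

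Among genes whose products silence retroviral families, H3K9me2 over the gene also rose in soma for most. Of 30 listed genes 29 were measured, and of these 25 rose while 0 fell, by the authors' deposited table, against 68.2% and 0.101% of 28706 genes and 71.8% at an unadjusted p under 0.05, and their median of 1.00 was near the 1.04 of all genes. The highest of the 29 in the authors' deposited table were Daxx, a histone H3.3 chaperone, at 1.97 ± 0.55, and Cbx3, a heterochromatin protein, at 1.70 ± 0.40. Uhrf1, which recruits DNMT1, followed at 1.63 ± 0.38. Daxx is sparse, with an average of 1.84 log2 CPM. Cbx1 at 0.087 ± 0.30 (adjusted p = 0.791), Ehmt2 at 0.48 ± 0.31 (adjusted p = 0.157) and Wiz at 0.52 ± 0.28 (adjusted p = 0.0832) did not pass, by limma. In the authors' deposited table Setdb1, the H3K9 methyltransferase that acts on retroviral families, rose by 0.61 ± 0.29 (adjusted p = 0.0485), while its partner Trim28 stood at 0.71 ± 0.52 (adjusted p = 0.202), by limma. With residual degrees of freedom alone 13 of the 29 passed, and the share of all genes at that setting was not computed. In PGCs 0 of 29 passed, against 0% of all genes, and 0 at an unadjusted p under 0.05, against 0.984%; their median was -0.11, from the authors' deposited table.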

How the data were processed

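Nuclei from 1000 cells per library were processed with 18 PCR cycles, per the labels' protocols. Trim Galore 0.4.0, Bowtie2 2.2.5, Picard and mm10 are named in the submitters' processing notes; counting, filtering and scaling are not stated there. The 4 authors' deposited tables hold voom and limma results per the file headers: log2 fold change and average log2 CPM, the moderated t as a score, p-value and Benjamini-Hochberg adjusted p-value, and B, a natural log of odds. Each SE is log2 fold change over t.

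Recomputing p-values from t gave 7410 degrees of freedom for soma families and 29.6 for PGC families. The libraries alone leave 5 in soma and 8 in PGCs, so the soma fit pooled its error over all families. Soma direction was read from the SEs: 3 added and 4 subtracted libraries left a median misfit of 0.0248% and the reverse 0.488%. PGC group sizes are equal, so that sign was assumed. Library size was derived from the lowest averages, which fit steps of whole reads (37 of 37 in soma, 35 of 35 in PGCs, relative tolerance 3e-11), and is a minimum.

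Relative tests subtracted the table's median and kept the SE of the fold change, so a family that did not pass may still differ from the median. The difference used Satterthwaite degrees of freedom over 1445 families and took soma and PGC estimates as independent. Both tests were also run on simulated data (Python 3.11.15, scipy 1.17.1), with errors drawn independently for each family. Families of the same libraries share error, so those runs cannot show how the tests behave here. Adjustment ran over all families of a table. The members and lists were chosen with earlier results of these data known. Named are internal parts, the 10 smallest p-values, the 5 highest and lowest values, averages and differences, and members at the threshold.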

Additional observations from a re-analysis of the deposited data

How the results depend on the processing

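The count of risen soma members depended most on the reference: 238 of 239 passed upward as deposited and 0 relative to the median family, and the scaling behind the tables is not stated. Under other settings it was 236 of 239 at an adjusted p under 0.01, 234 with residual degrees of freedom alone (5 in soma, 8 in PGCs) and 215 of 216 without families below the first quartile of averages. In PGCs 0 passed under each of these. The 1 member lower than the median family became 0 with residual degrees of freedom and 0 when centred on the median gene. The soma minus PGC difference went from 0 to 49 members with a correlation of 0.5 and to 151 with the PGC sign turned, and relative to the medians stayed at 0 in all 5 alternatives. Silencing genes fell from 25 to 13 with residual degrees of freedom. Shares of all families or genes under these other settings are not given here, so the counts do not set members or listed genes apart. Relative to the centre, values near 0 changed sign: RLTR1 to 0.059 on the median gene, and RLTR44-int to -0.031 and RLTR47_MM to -0.0095 without simple tandem repeats; the cause is the shifted centre. No paired analysis was possible because the tables hold no values per library; for the same reason no library could be left out. PGC errors were larger than soma errors (median SE 0.59 and 0.29), also in abundant members such as RMER15 (0.53 and 0.23); the cause was not tested.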
